A study of Bos grunniens with 18 samples.

Results

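The interleukin-1 (IL-1) genes and the inflammasome genes beside them were followed in whole blood of adult female yaks through 3 reproductive stages, named Y-A for anestrus, Y-E for estrus and Y-P for pregnancy. Of 10 names sought (IL1A, IL1B, IL1RN, IL1R1, IL1R2, IL1RAP, IL18, IL18RAP, NLRP3 and CASP1), 8 had a row of that name among the 20607 genes of the table. All 8 passed the low-count filter and belong to the 14508 genes tested. IL1RAP and CASP1 were found only through the description column, under identifiers with no gene name. Their values are given beside the 8 and are not in the counts.

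The cows were 4 to 8 years old, in the second year of calving and from a herd bred by artificial insemination, and the blood of 6 of them was sequenced, which gave 6 libraries for each stage. The study brought cows into heat together with a progesterone pessary, cloprostenol (a prostaglandin F2α analog) and GnRH, and inseminated them afterwards. The sources used here do not place each draw against that treatment, so reproductive stage, hormone treatment and time of sampling cannot be told apart. All blood was collected in EDTA tubes with TRIzol LS, and mRNA was captured with oligo(dT), so every leukocyte, platelet and reticulocyte of the blood could contribute.

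IL-1 alpha (IL1A) and IL-1 beta (IL1B) are inflammatory cytokines that act through the receptor IL1R1 and its partner IL1RAP. IL1RN, the receptor antagonist, occupies IL1R1 without signalling, and IL1R2 is a decoy receptor that binds the cytokine and does not signal. IL-1 beta and IL-18 are made as inactive precursors, which caspase-1 (CASP1) cuts after a sensor such as NLRP3 has assembled an inflammasome. Neutrophils and monocytes are major blood sources of these transcripts.

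The libraries held 30247267 to 48401076 counts. Hemoglobin transcripts, the mark of reticulocytes, made up 3.1% to 16.7% of the Y-A libraries, 0.0899% to 0.713% of 5 Y-E libraries and 0.0272% to 0.376% of the Y-P libraries. The remaining Y-E library, replicate 6, had 8.36% and is not listed in the study's mapping summary, so each test was also run on the other 17 libraries. Y-A replicate 5 stood apart from its group for several of the genes described here. Levels within a gene are given as CPM (counts scaled to a common library size after TMM normalization), and levels between genes as FPKM, which divides by transcript length. A gene was said to have fallen or risen at a Benjamini-Hochberg adjusted p under 0.05 over all tested genes (edgeR quasi-likelihood test, two-sided). It was called when the log2 fold change was also at least 1 in size. In bulk blood, fewer cells of a type and less RNA per cell cannot be told apart.

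Per length, IL1B was the most abundant of the genes. Over the 18 libraries its FPKM ranged from 84.7 to 434 with a median of 212, against 88.7 for IL1RN and 57.5 for IL1R1. A middle group followed with median FPKM of 12.8 for NLRP3, 11.3 for IL18RAP, 10.2 for IL18 and 9.24 for IL1R2, whose ranges overlapped. IL1A, with a median FPKM of 2.08, was the lowest. The rows found by description lay between, at a median FPKM of 30.2 for CASP1 and 18.3 for IL1RAP.

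**Figure D1:**
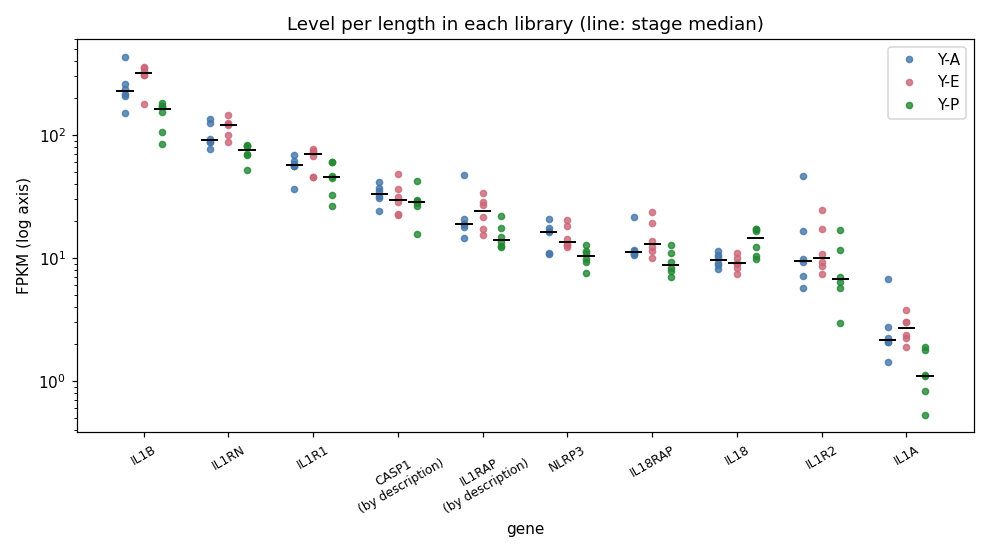
FPKM of each gene in each of the 18 libraries, on a log axis, with genes ordered by their median over all libraries; points are libraries colored by stage and lines are stage medians. IL1B is highest (median 212), IL1A lowest (median 2.08), and NLRP3, IL18RAP, IL18 and IL1R2 overlap.

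Pregnant blood carried less of the IL-1 ligands, of their antagonist and of the sensor NLRP3 than blood of either earlier stage. Against Y-A, 4 of the 8 genes fell (IL1A, IL1B, IL1RN and NLRP3) and 0 rose, where 3.61% of all tested genes fell by the same rule. Against Y-E, 6 of the 8 fell, the same 4 with IL1R1 and IL18RAP, where 8.68% of all tested genes fell. The median log2 fold change of the 8 was −0.75 in Y-P vs. Y-A and −0.85 in Y-P vs. Y-E, beside 0.03 and 0.04 over all tested genes. With the fold threshold added, 2 of the 8 were called lower in each comparison, IL1A and IL1B in both, beside 1.09% and 2.22% of all tested genes. Both comparisons share the Y-P libraries and are not independent. The 8 genes were also chosen with earlier results of these data known, so their shares beside all tested genes are descriptive.

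Between estrus and anestrus none of the 8 passed. The log2 fold changes in Y-E vs. Y-A lay between −0.30 for IL1R2 and 0.28 for IL1B, every adjusted p was 0.999 with edgeR, and 0 of the 8 had an unadjusted p under 0.05, where 6.2% of all tested genes did. DESeq2 also called 0 of them. In that comparison 0.0207% of all tested genes passed the adjusted p. The stages Y-A and Y-E are therefore described side by side for each gene, with no order read between them.

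The 3 ligands differed. IL1A ranged in Y-A from 4.34 to 19.2 CPM with a median of 5.72, in Y-E from 4.98 to 10.3 with a median of 7.56, and in Y-P from 1.43 to 4.32 with a median of 2.80. The highest pregnant library lay just under the lowest anestrous library, so the groups did not overlap, and the 19.2 CPM came from Y-A replicate 5. IL1A fell in Y-P vs. Y-A (log2 fold change −1.48, SE 0.35, edgeR adjusted p = 0.022) and in Y-P vs. Y-E (−1.38, SE 0.35, adjusted p = 0.0136). It is a low gene with 62 to 638 counts per library, and the comparison with Y-A depended on single libraries: the adjusted p was 0.0514 without Y-A replicate 5, with a log2 fold change of −1.0, and 0.0521 when Y-P replicate 2 was left out.

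IL1B ranged in Y-A from 175 to 476 CPM with a median of 231, in Y-E from 182 to 382 with a median of 350, and in Y-P from 84.6 to 167 with a median of 148. Every pregnant library lay below every library of the other stages. The Y-P mean was 133 ± 34.9 CPM (SD, n = 6), beside 266 ± 107 for Y-A and 323 ± 76.7 for Y-E. IL1B fell in Y-P vs. Y-A (log2 fold change −1.0, SE 0.24, edgeR adjusted p = 0.0208) and in Y-P vs. Y-E (−1.28, SE 0.24, adjusted p = 0.00199), to 0.499 and 0.411 times the earlier level. The anestrus comparison sat at the fold threshold. Without Y-A replicate 5 the log2 fold change was −0.76 (adjusted p = 0.0459), and without Y-P replicate 2 the adjusted p was 0.0508. Without Y-E replicate 6, which had the lowest IL1B of its stage (182 CPM), the estrus comparison was −1.40 (adjusted p = 0.000783).

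IL18, the other caspase-1 substrate, did not share this pattern. It ranged from 5.53 to 8.61 CPM in Y-A, from 5.16 to 7.93 in Y-E and from 6.70 to 10.5 in Y-P, with medians of 7.23, 6.57 and 8.74. The groups overlapped, and Y-P was the higher member in 5 of 6 same-numbered pairs in either comparison. The log2 fold changes were 0.30 in Y-P vs. Y-A (SE 0.16, edgeR adjusted p = 0.282) and 0.40 in Y-P vs. Y-E (SE 0.16, adjusted p = 0.108). On the FPKM scale the means of Y-A, Y-E and Y-P were 9.70 ± 1.23, 9.16 ± 1.3 and 13.9 ± 3.53 (SD, n = 6). There the limma test on log2(FPKM + 1) passed, with 0.46 against Y-A (adjusted p = 0.0398) and 0.53 against Y-E (adjusted p = 0.0148). On log2(FPKM + 0.1) it was 0.49 against Y-A (adjusted p = 0.0537) and passed against Y-E (0.57, adjusted p = 0.022). For IL18, edgeR without TMM factors gave 0.47 against Y-A (adjusted p = 0.0781) and passed against Y-E (0.54, adjusted p = 0.0331). Leaving out the TMM factors moved the median of all tested genes to 0.19 and 0.18 in these comparisons, while 7 of the 8 genes lay below 0 under each scaling run.

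The level of IL1B relative to IL18 within a library was lower in pregnancy. The ratio of IL1B to IL18, each in FPKM, ran from 16.5 to 37.9 in Y-A, from 24.3 to 40.3 in Y-E and from 8.59 to 14.8 in Y-P. Every pregnant library had a lower ratio than every other library. The ratio of IL1B to IL1A gave no such separation, at 64.5 to 116 in Y-A, 81.5 to 148 in Y-E and 56.3 to 207 in Y-P.

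**Figure D2:**
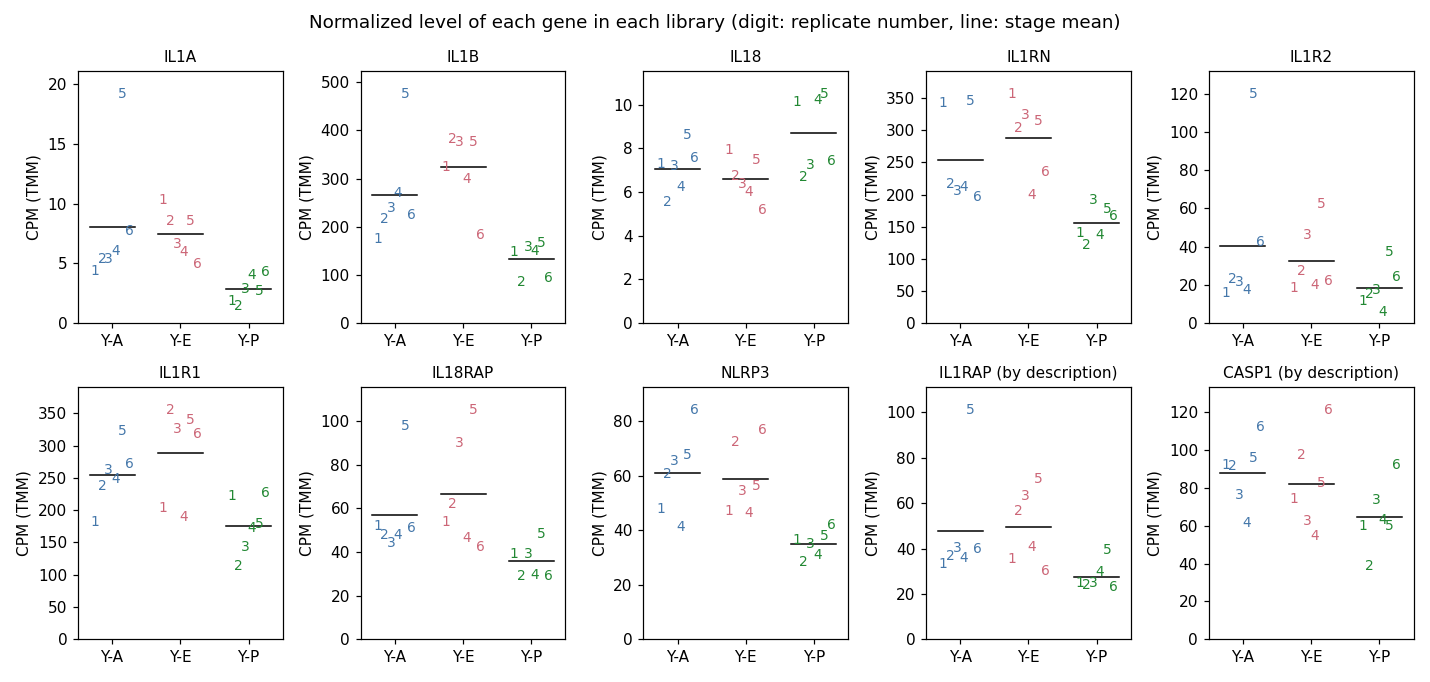
CPM of each gene in every library, where digits are replicate numbers and lines are stage means. For IL1A, IL1B and IL1RN every Y-P library lies below every Y-A and Y-E library, IL18 overlaps between stages, and Y-A replicate 5 is the top anestrous library of 8 of the 10 panels.

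The inhibitors also changed or varied. IL1RN, the antagonist, ranged in Y-A from 196 to 346 CPM with a median of 215, in Y-E from 200 to 357 with a median of 309, and in Y-P from 122 to 192 with a median of 153. The pregnant libraries again lay wholly below the others. IL1RN fell in Y-P vs. Y-A (log2 fold change −0.70, SE 0.18, edgeR adjusted p = 0.0279) and in Y-P vs. Y-E (−0.89, SE 0.18, adjusted p = 0.00307). The anestrus comparison was close to its threshold, with an adjusted p of 0.0577 or 0.0657 when Y-A replicate 1 or 5 was left out and of 0.0641 or 0.0593 when Y-P replicate 2 or 4 was. The estrus comparison passed whichever single library was left out.

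Agonist and antagonist thus were both lower in pregnancy, and their ratio overlapped between stages. The FPKM ratio of IL1B to IL1RN was 1.19 to 3.21 in Y-A with a median of 2.68, 1.81 to 3.48 in Y-E with a median of 2.75, and 1.3 to 2.54 in Y-P with a median of 2.05. IL1B exceeded IL1RN per length in every library.

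IL1R2, the decoy receptor, was the most variable of the 8. It ranged in Y-A from 15.9 to 120 CPM with a median of 22.5, in Y-E from 18.5 to 62.3 with a median of 24.8, and in Y-P from 6.08 to 37.1 with a median of 16.1. The groups overlapped, and replicate 5 was the highest library of each stage. IL1R2 did not pass in Y-P vs. Y-A (log2 fold change −1.11, SE 0.50, edgeR adjusted p = 0.193) or in Y-P vs. Y-E (−0.82, SE 0.50, adjusted p = 0.301). With the replicate number, taken as the cow, as a block it did pass, at −0.92 (adjusted p = 0.0314) and −0.91 (adjusted p = 0.0192). No label states that the numbers mark cows, and over all tested genes Y-P replicate 5 correlated best with another number in both other stages. In same-numbered pairs Y-P was lower in 6 of 6 against Y-A and in 5 of 6 against Y-E. Without Y-A replicate 5 the unblocked log2 fold change against Y-A was −0.38 (adjusted p = 0.662).

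Among the receptors, IL1R1, the signalling receptor, ranged from 181 to 322 CPM in Y-A, from 190 to 355 in Y-E and from 113 to 227 in Y-P, with medians of 255, 322 and 175. The groups overlapped, since Y-P replicates 1 and 6 (222 and 227 CPM) lay above the lowest libraries of the other stages. IL1R1 fell in Y-P vs. Y-E (log2 fold change −0.72, SE 0.19, edgeR adjusted p = 0.0169), and its value in Y-P vs. Y-A was −0.53 (SE 0.19, adjusted p = 0.0993). The fall against estrus did not pass with limma on log2(FPKM + 1) (−0.51, adjusted p = 0.0833). Per length, IL1R1 exceeded the decoy IL1R2 in every library, by a ratio of 1.48 to 7.96 in Y-A, 3.01 to 7.92 in Y-E and 2.65 to 15.7 in Y-P.

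IL18RAP, the accessory chain of the IL-18 receptor, ranged in Y-A from 44.0 to 97.8 CPM, in Y-E from 42.5 to 105 and in Y-P from 28.9 to 48.3. Of the pregnant libraries, 5 lay below the lowest library of Y-A and 5 below the lowest of Y-E. IL18RAP fell in Y-P vs. Y-E (log2 fold change −0.90, SE 0.24, edgeR adjusted p = 0.0166), a result that was lost without Y-E replicate 5 (−0.72, adjusted p = 0.0515). In Y-P vs. Y-A it was −0.67 (SE 0.24, adjusted p = 0.0971), and with the replicate block −0.65 (adjusted p = 0.0157). Y-P was lower in 6 of 6 same-numbered pairs in both comparisons.

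The row described as IL1RAP, the partner chain of IL1R1, ranged from 33.1 to 101 CPM in Y-A, from 30.3 to 70.5 in Y-E and from 23.0 to 39.3 in Y-P. It fell in Y-P vs. Y-E (log2 fold change −0.84, SE 0.27, edgeR adjusted p = 0.0423) and passed in 9 of the 18 fits that each left out 1 library. In Y-P vs. Y-A it was −0.79 (SE 0.27, adjusted p = 0.0826), and it passed with the replicate block (−0.70, adjusted p = 0.0205) and with DESeq2 (adjusted p = 0.0368).

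Among the genes that fell in both comparisons, NLRP3, the inflammasome sensor, was the steadiest to leaving out single libraries. It ranged in Y-A from 41.3 to 84.2 CPM with a median of 63.0, in Y-E from 46.3 to 76.7 with a median of 55.4, and in Y-P from 28.3 to 42.0 with a median of 35.7. Only Y-P replicate 6, the highest pregnant library, reached above the lowest anestrous library, and no pregnant library reached Y-E. NLRP3 fell in Y-P vs. Y-A (log2 fold change −0.80, SE 0.17, edgeR adjusted p = 0.0118) and in Y-P vs. Y-E (−0.75, SE 0.17, adjusted p = 0.00641). It passed in both comparisons whichever single library was left out. With limma on log2(FPKM + 0.1) the adjusted p of NLRP3 was 0.0534 against Y-A and 0.0507 against Y-E. IL1A passed in both there (adjusted p = 0.0353 and 0.0194).

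The row described as CASP1, the protease of the inflammasome, ranged from 61.4 to 112 CPM in Y-A, from 54.5 to 121 in Y-E and from 38.7 to 92.1 in Y-P. The groups overlapped. It did not pass in Y-P vs. Y-A (log2 fold change −0.45, SE 0.20, edgeR adjusted p = 0.192) or in Y-P vs. Y-E (−0.35, SE 0.20, adjusted p = 0.277).

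Counting instead the genes whose groups did not overlap in CPM, 3 of the 8 (IL1A, IL1B and IL1RN) were wholly lower in Y-P than in Y-A, beside 2.32% of all tested genes. Against Y-E 4 were (the same 3 with NLRP3), beside 3.84%. In FPKM these 3 overlapped with Y-A. The highest Y-P and lowest Y-A values were 1.88 and 1.42 for IL1A, 182 and 150 for IL1B, and 82.8 and 77.5 for IL1RN. Against Y-E, IL1B (182 and 180) and NLRP3 (12.8 and 12.2) overlapped in FPKM, while IL1A (1.88 and 1.89) and IL1RN (82.8 and 88.3) did not. Leaving out Y-E replicate 6 did not change the number of the 8 that fell, at 4 in Y-P vs. Y-A and 6 in Y-P vs. Y-E. With the replicate block the numbers were 6 and 7.

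The genes lie mostly in 2 stretches of chromosome 9 of the Bos grunniens genome (v101, Ensembl identifiers). IL1A (68426280 to 68439554, minus strand), IL1B (68493090 to 68500109, minus strand) and IL1RN (68803361 to 68829594, plus strand) lie within 403315 bases that hold 6 genes of the table, and these 3 were the ones with enough counts to be tested. Each of the other 3 genes had at most 14 counts in any library. All 3 tested genes of this stretch fell in both pregnancy comparisons. The receptor stretch of 626559 bases holds IL1R2 (24636432 to 24705078), IL1R1 (24893184 to 24936951) and IL18RAP (25231616 to 25262990), all on the plus strand. Its other tested genes, IL1RL1 (the IL-33 receptor) and IL18R1 (the ligand-binding chain of the IL-18 receptor), are named for their position. In Y-P vs. Y-E their log2 fold changes were 0.36 (SE 0.23, edgeR adjusted p = 0.337) and −0.24 (SE 0.25, adjusted p = 0.573). IL18 (65950912 to 65959810, plus strand) lies on chromosome 13 and NLRP3 (43961000 to 44009515, plus strand) on chromosome 8. All are protein-coding, and none overlaps another gene of the table.

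Within a stage the 8 genes did not form 1 block. Over their 28 pairs, the Pearson correlation of log2 CPM after removing the stage means ran from −0.00908 to 0.776 over the 18 libraries with a median of 0.445, and 27 were above 0. The closest pairs were IL1R2 with IL18RAP (0.776) and IL1B with IL18RAP (0.758). NLRP3 stood apart from IL1B (0.00245) and IL1RN (−0.00908) and was closest to IL1R1 (0.665). These values are descriptive, since the libraries share cows and cell makeup, and without Y-A replicate 5 the pair IL1R2 and IL18RAP was at 0.679. The same replicate number was the highest library in all 3 stages for IL1R2 and IL18RAP (replicate 5) and for NLRP3 (replicate 6). That is 3 of the 8, or 37.5%, beside 7.29% of all tested genes. IL1R2 and IL18RAP are also the closest pair above, so they are not separate observations. Over all tested genes, Y-P replicate 5 correlated at −0.0121 with Y-A replicate 5 and at −0.0544 with Y-E replicate 5.

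The genes whose levels followed IL1B most closely over the 18 libraries were RNF24 (Pearson r of log2 CPM 0.937), CCDC93 (0.931), a gene with no name, ENSBGRG00000006196 (0.928), CRYAB (0.919) and MB21D2 (0.912). For IL1R2 they were CTNNA1 (0.889), SLC26A8 (0.858), OGFRL1 (0.818), the row described as IL1RAP (0.815) and IL18RAP (0.803). These correlations include the stage differences and are descriptions. After removing stage means, RNF24 remained at 0.857 with IL1B and CTNNA1 at 0.866 with IL1R2.

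Other genes of the pathway were taken from 4 lists. Of 15 other family ligands, receptors and inhibitors listed, 7 were in the table and 5 tested. ADAM17, a protease that sheds cell surface receptors, fell in Y-P vs. Y-A (log2 fold change −0.39, edgeR adjusted p = 0.0434) and in Y-P vs. Y-E (−0.37, adjusted p = 0.0314, 0.0657 without Y-E replicate 6). SIGIRR, an inhibitory receptor of the family, rose in Y-P vs. Y-E from 24.4 ± 3.74 to 41.1 ± 6.84 CPM (SD, n = 6, edgeR log2 fold change 0.75, adjusted p = 0.0211), with 0.70 against Y-A (adjusted p = 0.0528, and 0.0411 with the replicate block). The median log2 fold change of the 5 was 0.30 in Y-P vs. Y-A and 0.36 in Y-P vs. Y-E, beside 0.03 and 0.04 over all tested genes.

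Of 20 genes of IL-1 receptor signalling listed, 17 were in the table and tested. Of these 17, 2 fell and 0 rose in Y-P vs. Y-A, where 3.61% of all tested genes fell. In Y-P vs. Y-E 6 fell and 0 rose, where 8.68% of all tested genes fell. MYD88, the adaptor that the activated receptor recruits, went from 281 ± 96.7 CPM in Y-E to 135 ± 19.8 in Y-P (SD, n = 6, edgeR log2 fold change −1.06, adjusted p = 0.00117). Its log2 fold change against Y-A was −0.50 (adjusted p = 0.0997). MAP3K3, a kinase, fell in both comparisons (−0.43, adjusted p = 0.0429, and −0.68, adjusted p = 0.00158), as did the receptor-associated kinase IRAK2 (−0.43, adjusted p = 0.0339, and −0.36, adjusted p = 0.0379, the latter 0.0773 without Y-E replicate 6). The ubiquitin ligases PELI2 (−0.78, adjusted p = 0.00566) and PELI1 (−0.52, adjusted p = 0.00574) and the IKK subunit IKBKG (−0.35, adjusted p = 0.0165) fell in Y-P vs. Y-E. The list median was −0.18 in Y-P vs. Y-A and −0.19 in Y-P vs. Y-E.

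Of 23 other inflammasome and pyroptosis genes listed, 14 were in the table and tested. Of these 14, 0 passed in Y-P vs. Y-A by edgeR, and NEK7, a kinase that binds NLRP3, was alone in passing in Y-P vs. Y-E. It rose from 34.0 ± 2.14 to 42.8 ± 6.02 CPM (SD, n = 6, log2 fold change 0.33, edgeR adjusted p = 0.0289), while NLRP3 fell. The list median was −0.01 in both comparisons. With the replicate block 1 of the 14 fell and 2 rose in each.

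Of 18 genes listed that IL-1 is known to induce, 12 were in the table and 9 tested. Of these 9, 1 fell in Y-P vs. Y-A, 3 fell in Y-P vs. Y-E, and 0 rose. The shares of all tested genes that fell were 3.61% and 8.68%. The list median was −0.31 in Y-P vs. Y-A and −0.26 in Y-P vs. Y-E, and 3 of the 9 were fitted above 0 in each. PTGS2, the inducible cyclooxygenase of prostaglandin synthesis, stood at 67.5 ± 22.4 CPM in pregnancy (SD, n = 6), beside 160 ± 55.2 in anestrus and 150 ± 60.9 in estrus. It fell in Y-P vs. Y-A (log2 fold change −1.25, edgeR adjusted p = 0.0176) and in Y-P vs. Y-E (−1.15, adjusted p = 0.011). TNFAIP6, a hyaluronan-binding protein, fell in Y-P vs. Y-E (−1.49, adjusted p = 0.0102), as did IER3, an immediate early gene (−0.69, adjusted p = 0.0351). None of the 4 lists had a gene that passed in Y-E vs. Y-A by edgeR.

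**Figure D3:**
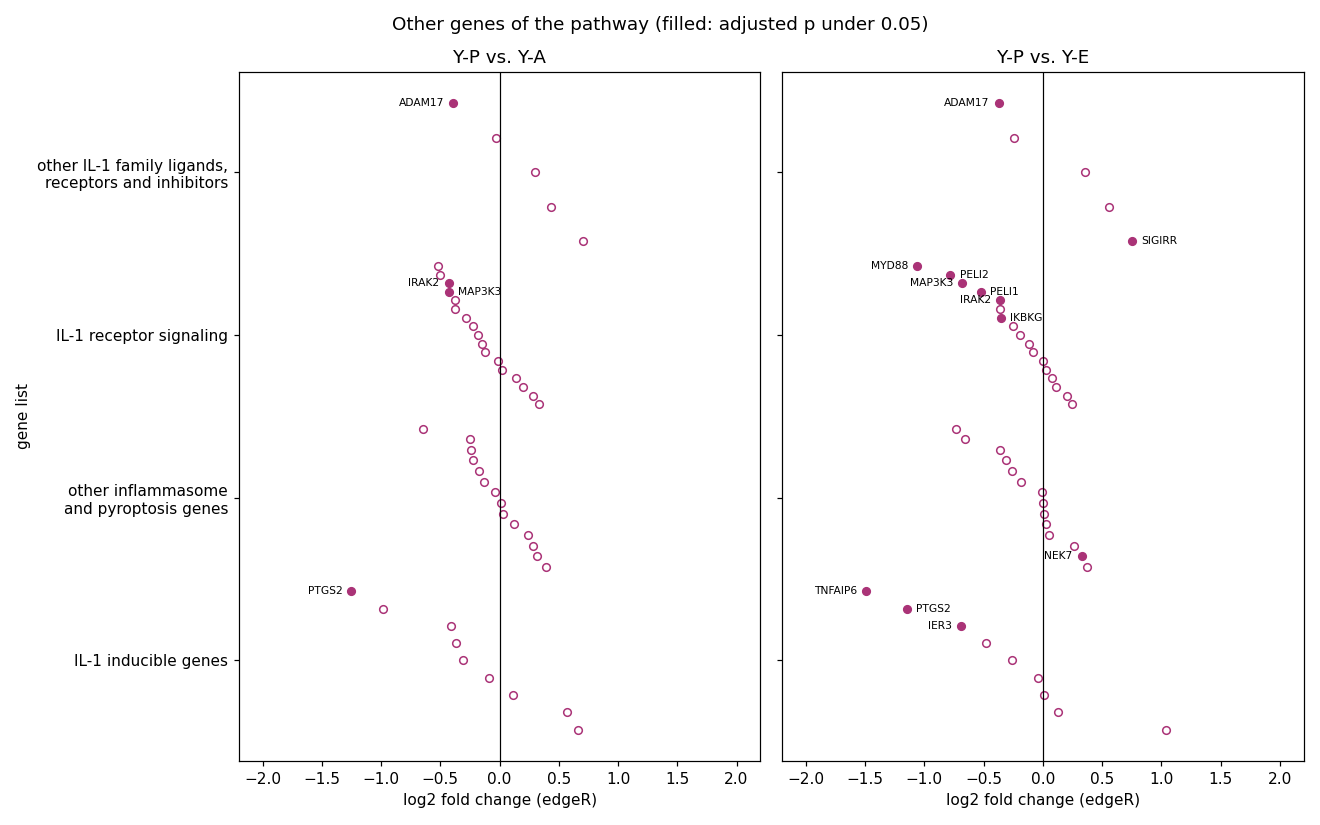
edgeR log2 fold change of each tested gene of the 4 other lists in both pregnancy comparisons, where filled and named points have an adjusted p under 0.05. Filled points are fewer than open ones in each list and include SIGIRR and NEK7 on the higher side.

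Markers of the blood cells were measured in the same libraries. The summed level of 7 neutrophil markers (of 12 listed, CXCR1 and CXCR2 not in the table by name) ran from 4570 to 10400 CPM in Y-A, from 5930 to 13800 in Y-E and from 3580 to 6940 in Y-P. In Y-P vs. Y-E 5 of the 7 fell by edgeR and in Y-P vs. Y-A 0 did, beside 8.68% and 3.61% of all tested genes. The median log2 fold changes of the 7 were −1.45 and −0.53. Y-A replicate 5, the top library for IL1A, IL1B and IL1R2, was also the top anestrous library for this sum (10400 CPM). Y-A replicate 1 came next in this sum (8260 CPM). That library was the lowest anestrous one for IL1A (4.34 CPM), IL1B (175), IL1R1 (181) and IL1R2 (15.9), and not for IL1RN (342). Y-E replicate 6, the lowest estrous library for IL1A and IL1B, had the lowest sum of its stage (5930 CPM). The 8 monocyte markers summed to 821 to 1190 CPM in Y-A, 664 to 1300 in Y-E and 562 to 925 in Y-P, and 0 fell in Y-P vs. Y-A and 1 in Y-P vs. Y-E. Their median log2 fold change was −0.44 in Y-P vs. Y-A and −0.53 in Y-P vs. Y-E, beside 0.03 and 0.04 over all tested genes. Y-A replicate 1 had the highest monocyte sum of its stage (1190 CPM).

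The 6 T cell markers summed to 703 to 1250 CPM in Y-P, against 608 to 732 in Y-A and 594 to 761 in Y-E, so the groups overlapped through Y-P replicate 1. Of the 6, 2 rose in each pregnancy comparison, and the share of all tested genes that rose is not given here. Their median log2 fold change was 0.5 in Y-P vs. Y-A and 0.32 in Y-P vs. Y-E, beside 0.03 and 0.04 over all tested genes. Reticulocyte markers (5 of 8 in the table) summed to 450 to 11000 CPM in Y-A, 92.4 to 4660 in Y-E and 39.2 to 126 in Y-P. Of these, 5 fell in Y-P vs. Y-A and 4 in Y-P vs. Y-E, beside 3.61% and 8.68% of all tested genes. No marker of these 4 lists that was in the table stayed at or under 3 counts in all 18 libraries. The part of neutrophils, monocytes or other cells in the lower IL-1 genes of pregnancy was not tested.

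**Figure D4:**
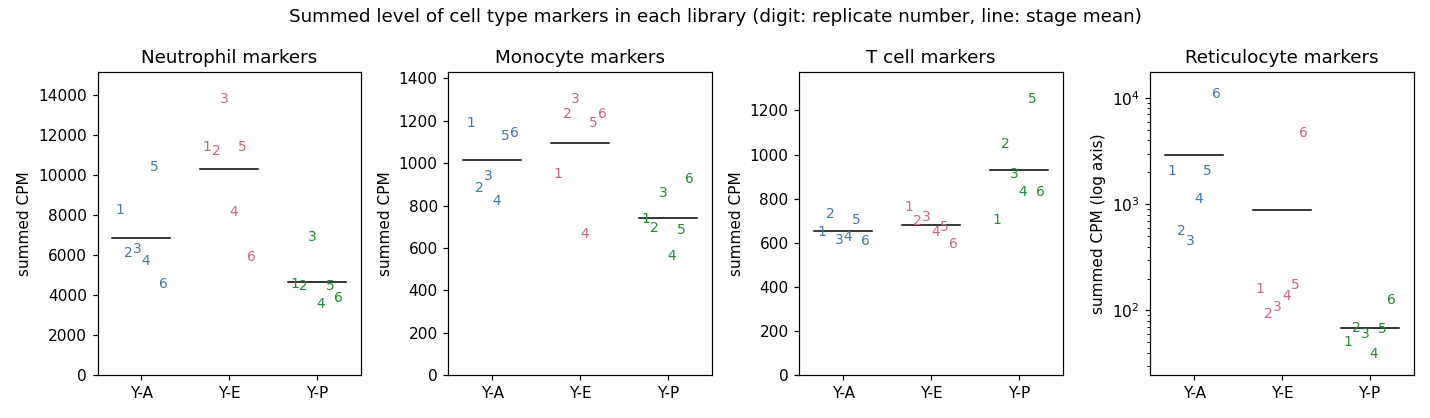
Summed CPM of neutrophil, monocyte, T cell and reticulocyte markers in every library, the last on a log axis, where digits are replicate numbers and lines are stage means. The highest neutrophil sums are 10400, 13800 and 6940 for Y-A, Y-E and Y-P. T cell sums run from 703 to 1250 in Y-P and overlap those of the other stages.

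The remaining marker lists covered lymphocytes, platelets and other granulocytes. The 7 B cell markers summed to 765 to 2300 CPM in Y-A, 663 to 2020 in Y-E and 866 to 2490 in Y-P, with none passing in any comparison. NK and cytotoxic markers (5 of 7) ran from 139 to 300 CPM in Y-A, 140 to 336 in Y-E and 208 to 324 in Y-P, and 1 rose in Y-P vs. Y-E. Platelet markers (4 of 7, GP1BB at or under the floor of 3 counts) ran from 277 to 366, 239 to 388 and 153 to 208 CPM in Y-A, Y-E and Y-P, and 1 of the 3 tested fell in each pregnancy comparison. Eosinophil and basophil markers (5 of 7) ran from 346 to 1260, 648 to 980 and 419 to 1140 CPM, and immature neutrophil granule genes (4 of 6) from 25.7 to 69.7, 31.2 to 79.6 and 27.1 to 39.0 CPM, and 1 of the latter fell in each pregnancy comparison. By the same rule 3.61% of all tested genes fell in Y-P vs. Y-A and 8.68% in Y-P vs. Y-E.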

How the data were processed

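Whole blood mRNA was sequenced from 18 libraries, 6 per stage, grouped by sample title. The authors trimmed reads with Cutadapt 1.9, aligned them with HISAT2 2.2.1 to the Bos grunniens genome (v101) and assembled transcripts with StringTie 2.1.6. The deposited counts are whole numbers per gene, not normalized, and how the authors made them is not given in the sources used here. The deposited FPKM values, made by the authors with StringTie and ballgown, are fragments scaled by transcript length and mapped fragments and were used as they are. Columns of sample values left unused numbered 0.

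The quasi-likelihood test of edgeR 4.0.16 (R 4.3.3, two-sided) was run on the counts with TMM factors and filterByExpr, modelling stage alone across the 18 libraries, with Benjamini-Hochberg adjustment over the 14508 tested genes in each of 3 comparisons. Thresholds were those of the study (absolute log2 fold change of at least 1, adjusted p under 0.05). The fit was tested on simulated data. Alternatives used DESeq2 1.42.0, limma 3.58.1 on log2(FPKM + 1) and log2(FPKM + 0.1), other scalings and filters, the 2 stages compared alone, a replicate block and each library left out. Tables and plots were made with Python 3.11.15, pandas 2.3.3 and matplotlib 3.10.9.

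The replicate numbers were taken to mark the cows, because the methods describe blood of 6 cows tracked over the stages. No label states this. Over all tested genes, the deviations of same-numbered libraries correlated at 0.11 to 0.515 between Y-E and Y-A, −0.0492 to 0.369 between Y-P and Y-A and −0.0544 to 0.4 between Y-P and Y-E. Each Y-E library correlated best with the Y-A library of its own number. Y-P replicates 4 and 5 correlated best with another number in Y-A, and Y-P replicates 2 and 5 with another number in Y-E. For replicate 5 the same-number values were −0.0121 and −0.0544. The main fit modelled stage alone and did not use the replicate numbers. If they mark cows, its p-values leave out that the same 6 cows were sampled at each stage. If they mark something else, the replicate block does not account for the cows.

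Members and gene lists were chosen with earlier results of these data known. All members were named. Of the other lists, genes with an adjusted p under 0.05 in at least 1 comparison were named, at most 8 per list, and the 5 tested genes with the highest Pearson r of log2 CPM (with 0.5 added) to IL1B and to IL1R2. Each library holds at least 30247267 counts, so 3 counts, the floor used, are 0.062 to 0.0992 CPM. No sequence was printed, since no sequence table was used here.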

Additional observations from a re-analysis of the deposited data

Results flagged for a closer look

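Of the 30 sets formed by 10 genes and 3 stages, 5 held a library whose gap to its nearest neighbor was large against the range of the 6 (Dixon's 95% criterion), and all 5 were Y-A replicate 5. IL1A was at 19.2 CPM there with the next library at 7.68, IL1B at 476 (next 269), IL1R2 at 120 (next 42.7), IL18RAP at 97.8 (next 51.9) and the row described as IL1RAP at 101 (next 40.4). Chance alone marks about 5% of such sets, and the 5 are measures on a single library. That library also had the highest neutrophil marker sum of Y-A, 10400 CPM, and its hemoglobin share of 7.38% lay within the range of its stage. Without it the log2 fold change in Y-P vs. Y-A was −1.0 for IL1A (edgeR adjusted p = 0.0514), −0.76 for IL1B (adjusted p = 0.0459), −0.38 for IL1R2 (adjusted p = 0.662), −0.44 for IL18RAP (adjusted p = 0.252) and −0.43 for IL1RAP (adjusted p = 0.237). NLRP3, for which it was not marked, was at −0.77 without it (adjusted p = 0.0279). What set this library apart was not tested.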

How the results depend on the processing

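The number of the 8 genes called lower at both thresholds, 2 in Y-P vs. Y-A, was 1 with library size only, 1 with no low-count filter, 1 with the replicate block, 0 and 1 with limma on log2(FPKM + 1) and log2(FPKM + 0.1), and 0 to 2 with single libraries left out (0 without Y-A replicate 5 or Y-P replicate 2, 1 without Y-P replicate 6). In Y-P vs. Y-E it was 1 with limma on log2(FPKM + 1) and 2 to 3 with single libraries left out. At the adjusted p alone, the 4 of Y-P vs. Y-A were 6 with the replicate block, 5 and 1 with limma on log2(FPKM + 1) and log2(FPKM + 0.1), and 1 to 4 with single libraries left out (1 without Y-P replicate 2, 2 without Y-A replicate 5), and the 6 of Y-P vs. Y-E were 7 with library size only, 7 with the replicate block, 5 with limma on log2(FPKM + 0.1) and 5 to 6 with single libraries left out. These counts take either direction, and some include a rise of IL18. That holds with limma on log2(FPKM + 1) in Y-P vs. Y-A, and with library size only and both limma fits in Y-P vs. Y-E. In Y-E vs. Y-A the number was 0 throughout. The cause of these changes was not tested.

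Of 290 refitted log2 fold changes of the 10 genes in each comparison, 271 in Y-P vs. Y-A and 268 in Y-P vs. Y-E kept their side of the threshold and none reversed. Reversals lay in Y-E vs. Y-A and never passed the threshold. IL1A became 0.04 and 0.07 with the 2 limma fits and 0.09 with the replicate block. With single libraries left out, IL1A lay between −0.23 and 0.38, IL1R2 between −0.58 and 0.44 (both above 0 only when Y-A replicate 5 was left out), NLRP3 between −0.14 and 0.04 and IL1RAP between −0.08 and 0.41. Fits chosen after seeing the data gave 1 gene called in Y-P vs. Y-A, both with the replicate block over 17 libraries (no Y-E replicate 6) and with 16 libraries (also no Y-A replicate 5 and no block). In these, Y-E vs. Y-A reversed for IL1A (0.26 and 0.48), IL1R2 (0.15 and 0.54) and IL18 (0.04, 16 libraries).

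Over all tested genes, the 2 calls of Y-E vs. Y-A became 12 with DESeq2, 11 with the replicate block, 18 and 4 when Y-E replicate 6 or Y-A replicate 1 was left out, and 34 and 22 in the added fits. The 208 of Y-P vs. Y-A became 126 and 324 with limma and 110, 134 and 136 without Y-P replicates 2, 4 and 5, and the 387 of Y-P vs. Y-E became 143 with limma on log2(FPKM + 1). Pathway list genes passing in Y-P vs. Y-A (4) numbered 1 with no low-count filter, 9 with DESeq2, 7 with limma on log2(FPKM + 1), 8 with the replicate block and 1 to 6 with single libraries left out (1 also with 16 libraries), and the 12 of Y-P vs. Y-E numbered 7 with only the 2 stages compared. With the replicate block IL1B was at −0.98 in Y-P vs. Y-A (adjusted p = 0.00719), just under the fold threshold, and beside this and the values given with IL1R2 and IL18RAP the block changed no call of the 8 genes. IL1A, at 62 to 638 counts, was the member with the least depth.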
